A study of Mus musculus with 20 samples.

Results

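Transcripts of 9 genes of the cytotoxic programme were followed in mouse regulatory T cells (Tregs) and CD8+ T cells exposed to IL-2 or to the partial agonist IL-2-REH. The genes were Gzma, Gzmb, Gzmk and Gzmm (4 granzymes), Prf1 (perforin), Ifng (interferon gamma), and the granule genes Nkg7, Cst7 and Srgn. They were chosen by symbol from the 23992 symbols in the tables, and all 9 were found, each with 1 RefSeq transcript. All 9 passed the filter on low counts in the Treg fit, and all 9 passed the RPKM filter in CD8+ T cells.

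Cytotoxic lymphocytes store granzymes, which are serine proteases, in secretory granules together with perforin. Perforin opens the membrane of a target cell so that granzymes can enter it, and serglycin, the product of Srgn, is the proteoglycan that packs granzymes in the granule. Cst7 encodes cystatin F, an inhibitor of the lysosomal cathepsins that process granzymes, Nkg7 encodes a granule membrane protein, and interferon gamma is the main macrophage-activating cytokine of T and NK cells. IL-2 is known to drive granzyme B and perforin in CD8+ T cells through STAT5, and activated Tregs can also carry granzyme B.

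Tregs were sorted by GFP from CD4+ cells of B6-Foxp3EGFP mice, in which EGFP reports the Treg factor Foxp3, and CD8+ T cells were isolated with a kit and without a sort from C57BL/6J mice. The sample records give spleen and lymph node as the source and C57BL/6N as the strain of every library. Cells received no cytokine, 200 nM IL-2 or 200 nM IL-2-REH for 90 min or 4 hr. IL-2-REH is an IL-2 mutein with weakened binding to the common gamma chain of the receptor. Each Treg group had 3 libraries (15 in all) and each CD8 group had 1 library (5 in all), so no test was possible in CD8+ T cells, and no source states whether the Treg replicates came from separate animals. The comparisons ask whether the 2 ligands and the 2 times differ in their effect on these genes within each cell type. Cells kept for the same 90 min or 4 hr without cytokine were not analysed here, so time in culture and cytokine cannot be told apart in any comparison with unstimulated cells.

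Tregs had between 20201392 and 63903764 exonic reads per library and CD8+ T cells between 38201667 and 45189835. The labels matched their markers: Foxp3 was at 65.2 to 252 RPKM (exonic reads per unit of transcript length and of sequencing depth) in Tregs and at most 0.999 RPKM in CD8+ T cells, and Cd8a was at most 1.84 RPKM in Tregs and 103 to 256 RPKM in CD8+ T cells. Some libraries stood apart. Unstimulated Treg replicate 1 had 911 RPKM of Srgn against 288 and 316 in unstimulated replicates 2 and 3. Its 13 listed transcription factors of effector genes summed to 662 RPKM, against 274 and 246 RPKM there and 538 to 642 RPKM in the 90 min libraries. Its interferon gamma receptor and response genes summed to 1260 RPKM, against 691 and 714 RPKM there and 1092 to 1387 RPKM at 90 min. This unstimulated library thus lay near the 90 min libraries in these sums, and the cause was not tested. Leaving it out raised the number of genes called with IL-2 at 90 min from 128 to 1997. Counts of called members against unstimulated Tregs are therefore given with and without it. Replicate 3 of all 5 Treg groups had a summed level of 4 erythroid markers of 79.5 to 146 RPKM, against 3.33 to 13.3 RPKM in replicates 1 and 2, and IL-2 replicate 3 at 4 hr had the fewest reads. Markers of NK cells, which carry most of these 9 genes at high level, also varied between libraries. The summed level of 6 NK markers (Ncr1, Klrb1c, Klra8, Klra4, Fcer1g and Tyrobp, each with reads in every group) was 2.69 to 4.38 RPKM in replicate 1 of all 5 Treg groups and 3.94 to 31.8 RPKM in replicates 2 and 3. The summed level of 4 macrophage markers was likewise lowest in replicate 1 of all 5 groups, at 7.43 to 14.0 RPKM against 18.1 to 52.2 RPKM. Differences in the NK sum therefore cannot be told apart from differences in macrophage RNA. In bulk samples, fewer cells of a type and less RNA per cell cannot be told apart.

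The 250 bases before the start of Gzmb, Ifng, Cst7 and Srgn are shown. Gzmb, Ifng and Cst7 were called in Tregs with IL-2 at 4 hr in the fit of all libraries with the replicate number as a block. Srgn was the most abundant of the 9. The genes themselves span chr14:56258836-56262334, chr10:118441046-118445894, chr2:150570415-150578944 and chr10:62493833-62527445, and reads were counted over their exons. The windows are RefSeq sequence of GRCm38.p6, on the gene's own strand, at chr14:56262335-56262584 (minus strand), chr10:118440796-118441045 (plus), chr2:150570165-150570414 (plus) and chr10:62527446-62527695 (minus). Capitals mark matches, on either strand, to TTCNNNGAA (the STAT site), TGANTCA (AP-1), TGTGGT (RUNX) and GGTGTGA (T-box).
Gzmb: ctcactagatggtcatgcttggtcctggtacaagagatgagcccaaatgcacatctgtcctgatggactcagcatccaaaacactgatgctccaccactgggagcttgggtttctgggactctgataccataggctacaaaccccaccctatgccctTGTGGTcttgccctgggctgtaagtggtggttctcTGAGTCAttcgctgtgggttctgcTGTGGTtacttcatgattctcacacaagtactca
Ifng: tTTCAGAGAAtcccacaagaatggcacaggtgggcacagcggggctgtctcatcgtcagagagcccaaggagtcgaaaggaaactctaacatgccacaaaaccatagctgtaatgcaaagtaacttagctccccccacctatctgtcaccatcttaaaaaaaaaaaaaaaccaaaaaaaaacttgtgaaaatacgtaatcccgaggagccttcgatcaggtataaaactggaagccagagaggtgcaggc
Cst7: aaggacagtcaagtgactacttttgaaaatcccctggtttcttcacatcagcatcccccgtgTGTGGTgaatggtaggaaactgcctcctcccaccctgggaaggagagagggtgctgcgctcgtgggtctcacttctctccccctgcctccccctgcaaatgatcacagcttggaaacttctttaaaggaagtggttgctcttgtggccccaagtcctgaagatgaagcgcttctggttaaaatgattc
Srgn: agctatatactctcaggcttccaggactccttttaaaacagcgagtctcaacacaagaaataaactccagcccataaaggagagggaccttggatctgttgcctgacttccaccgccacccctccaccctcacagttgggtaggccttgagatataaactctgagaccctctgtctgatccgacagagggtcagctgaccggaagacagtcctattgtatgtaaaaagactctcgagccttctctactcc

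Gzmb held 1 AP-1 match and 2 RUNX matches, Ifng held 1 STAT match at its far end, Cst7 held 1 RUNX match, and Srgn held no match to these letters. Among 32851 windows of the same length in the RefSeq table, 7.02% held the STAT letters, 6.75% AP-1, 14.1% RUNX and 3.33% T-box. Among the other members, Nkg7 held a STAT, a RUNX and a T-box match, Gzmm a STAT and a RUNX match, Gzma and Prf1 a RUNX match each, and Gzmk a T-box match. The Prf1 window is placed before a start 85 bases inside the gene as annotated. A match describes letters only and is no measure of binding.

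**Figure D1:**
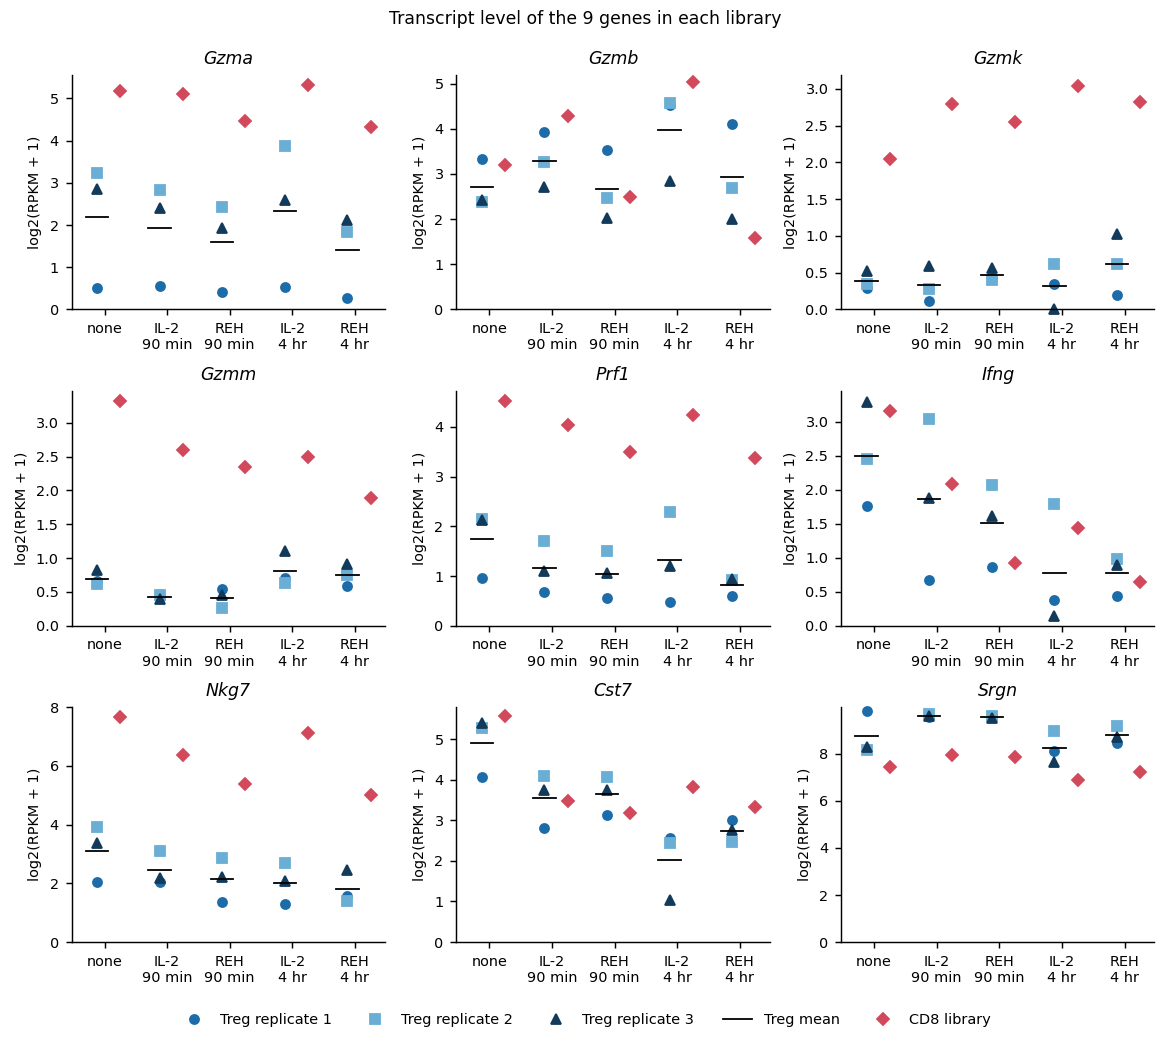
Level of each of the 9 genes as log2(RPKM + 1) (y axis) in unstimulated cells and with IL-2 or IL-2-REH (REH) at 90 min or 4 hr (x axis); blue points are the 3 Treg libraries by replicate, the black line is their mean and red diamonds are the single CD8 library. Gzma, Gzmk, Gzmm, Prf1 and Nkg7 lay above all 3 Treg libraries in CD8+ T cells in every condition, and Srgn lay below.

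Gzmb, the granzyme best known as a target of IL-2, was present in every Treg library. Unstimulated Tregs had 9.03, 4.24 and 4.39 RPKM in replicates 1, 2 and 3, IL-2 gave 14.2, 8.62 and 5.50 RPKM at 90 min and 22.1, 22.8 and 6.13 RPKM at 4 hr. With IL-2-REH the levels were 10.5, 4.52 and 3.07 RPKM at 90 min and 16.1, 5.49 and 3.02 RPKM at 4 hr. With IL-2 each library was above the unstimulated library of its own number at both times, although the groups overlapped because replicate 1 was higher than replicates 2 and 3 in 4 of 5 groups. With IL-2-REH only replicates 1 and 2 were above their unstimulated partners, and replicate 3 was below at both times. The share of all genes that were higher with IL-2 in every same-numbered pair was not counted.

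Ifng was highest before stimulation in replicates 1 and 3. It was at 2.4, 4.46 and 8.83 RPKM in unstimulated Tregs, at 0.591, 7.21 and 2.70 RPKM with IL-2 for 90 min, and at 0.298, 2.47 and 0.10 RPKM with IL-2 for 4 hr. IL-2-REH gave 0.816, 3.21 and 2.07 RPKM at 90 min and 0.361, 0.972 and 0.862 RPKM at 4 hr. At 4 hr every IL-2-REH library was below every unstimulated one, whereas the IL-2 libraries overlapped the unstimulated ones through replicate 2. The share of all genes with such a separation was not counted. The lowest of these values, in IL-2 replicate 3 at 4 hr, rested on 4 reads.

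Cst7 was the member with the largest called change in Tregs. Unstimulated libraries had 15.9, 37.6 and 41.1 RPKM, against 5.96, 16.1 and 12.5 RPKM with IL-2 and 7.73, 15.7 and 12.4 RPKM with IL-2-REH at 90 min. At 4 hr the levels were 4.94, 4.46 and 1.04 RPKM with IL-2 and 7.02, 4.56 and 5.78 RPKM with IL-2-REH. Both 4 hr groups lay wholly below the unstimulated libraries, and the share of all genes that do so was not counted.

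Srgn was by far the most abundant of the 9 transcripts per length in Tregs. It was at 747, 815 and 768 RPKM with IL-2 and 773, 776 and 740 RPKM with IL-2-REH at 90 min, and at 280, 505 and 202 RPKM with IL-2 and 354, 581 and 425 RPKM with IL-2-REH at 4 hr. Against these, unstimulated replicates 2 and 3 were at 288 and 316 RPKM and replicate 1, at 911 RPKM, was above all 12 stimulated Treg libraries. An overlapping gene, Gm51804, shares part of the Srgn locus, and no source states that reads were counted by strand, so reads of the 2 genes cannot be told apart where they overlap.

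Replicate 1 was the lowest library for Gzma and Prf1 in 5 of 5 groups, and for Nkg7 and Ifng in 4 of 5. Prf1 was at 0.948, 3.41 and 3.36 RPKM in unstimulated Tregs, 0.392, 3.91 and 1.31 RPKM with IL-2 for 4 hr and 0.513, 0.900 and 0.925 RPKM with IL-2-REH for 4 hr. Nkg7 was at 3.09, 14.2 and 9.47 RPKM before stimulation, 1.48, 5.45 and 3.20 RPKM with IL-2 for 4 hr and 1.95, 1.66 and 4.53 RPKM with IL-2-REH for 4 hr. Gzma, an abundant granzyme of NK cells, was at 0.209 to 0.459 RPKM in replicate 1 of all 5 groups and at 2.56 to 13.5 RPKM in replicates 2 and 3, and its locus overlaps Cdc20b. Gzmk and Gzmm, the other two granzymes followed, were low in Tregs, at no more than 1.04 RPKM (0 to 50 reads) and 1.15 RPKM (19 to 69 reads). Gzmm was at 0.576, 0.533 and 0.768 RPKM in unstimulated replicates 1, 2 and 3, on 46, 50 and 60 reads. With IL-2 for 90 min it was at 0.338, 0.365 and 0.315 RPKM, on 28, 34 and 26 reads. With IL-2 for 4 hr it was at 0.625, 0.543 and 1.15 RPKM.

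With IL-2 for 4 hr, Cst7 was the only member called in Tregs by edgeR's quasi-likelihood test at an adjusted p under 0.05 (Benjamini-Hochberg over 15009 genes). Its log2 fold change was -3.10 (SE 0.57, 95% interval -4.32 to -1.89, adjusted p = 0.013, 3 libraries a group). That is 1 of 9 members, beside 2.27% of all genes. The call was lost without replicate 2 (adjusted p = 0.32), without replicate 3 (0.41), without unstimulated replicate 3 (0.051) and with only the 2 groups in the fit (0.13), while the log2 fold change stayed between -3.75 and -2.40 over the fits that left out a replicate number or 1 unstimulated library. Over all alternatives the adjusted p ranged from 4.9e-07 (DESeq2) to 0.41. The 9 members had a median log2 fold change of -0.41, against 0.00 for all genes.

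Same-numbered libraries deviated together, but weakly in some pairs of groups, so the fit with the replicate number as a block stands beside this one. For IL-2 at 4 hr against unstimulated cells, replicate 3 had r = 0.12, against up to 0.11 for libraries of unlike number. With the block, 3 members were called with IL-2 at 4 hr, where 6.92% of all genes were called. Cst7 fell by 3.01 on the log2 scale (SE 0.56, adjusted p = 0.0069), Ifng fell by 2.90 (SE 0.71, adjusted p = 0.027), and Gzmb rose by 1.50 (SE 0.33, adjusted p = 0.016). Without the block, Gzmb was at 1.52 (adjusted p = 0.23) and Ifng at -2.45 (adjusted p = 0.23). In the fit with the block Gzmb was thus higher and Ifng lower after 4 hr of IL-2, but neither was called without it. The same directions were seen in 3 of 3 same-numbered pairs, and the share of all genes that do so was not counted. Ifng in IL-2 replicate 3 at 4 hr rested on 4 reads.

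With IL-2-REH for 4 hr no member was called without the block, where 0.313% of all genes were called, although 4 members had an unadjusted p under 0.05 (Prf1, Ifng, Nkg7 and Cst7). DESeq2 called 2 of them (Ifng and Cst7) beside 4.19% of all genes, and limma on log2(RPKM + 1) called 0 of 7 members tested. With the block 3 members were called, all lower than before stimulation, beside 3.03% of all genes. Cst7 fell by 2.32 (SE 0.53, adjusted p = 0.034), Ifng by 2.98 (SE 0.69, adjusted p = 0.036) and Prf1 by 1.54 (SE 0.37, adjusted p = 0.042), all on the log2 scale. Gzmb was at 0.24 (95% interval -0.45 to 0.93, adjusted p = 0.72) in the same fit.

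At 90 min neither ligand gave a called member. For IL-2, 0.853% of all genes were called, and Cst7 was the 1 member with an unadjusted p under 0.05 (log2 fold change -1.24, SE 0.53, adjusted p = 0.33). For IL-2-REH, 0.0933% of all genes were called, and Cst7 was again the 1 member under 0.05 before adjustment (-1.21, SE 0.53, adjusted p = 0.42). The block, DESeq2 and limma called 0 members for either ligand at 90 min.

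Without unstimulated Treg replicate 1, 1 member was called at 90 min for each ligand, and both times it was Srgn. Srgn rose by 1.59 on the log2 scale with IL-2 (SE 0.30, adjusted p = 0.0051) and by 1.55 with IL-2-REH (SE 0.30, adjusted p = 0.0061). These fits called far more of all genes, 12.9% for IL-2 and 12.1% for IL-2-REH at 90 min, so 1 of 9 members is near the background. At 4 hr without that library only Cst7 was called, at -3.38 with IL-2 (SE 0.58, adjusted p = 0.0043, beside 8.87% of all genes) and at -2.69 with IL-2-REH (SE 0.57, adjusted p = 0.015, beside 6.93% of all genes). Leaving it out with the block kept gave 1 member at 90 min with each ligand (26.9% and 25.4% of all genes called) and 4 and 5 members at 4 hr with IL-2 and IL-2-REH (21% and 16.7%). At 4 hr the sign of Srgn depended on this library, with log2 fold changes of -0.66 with it and 0.22 without it for IL-2, and of -0.24 and 0.65 for IL-2-REH.

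**Figure D2:**
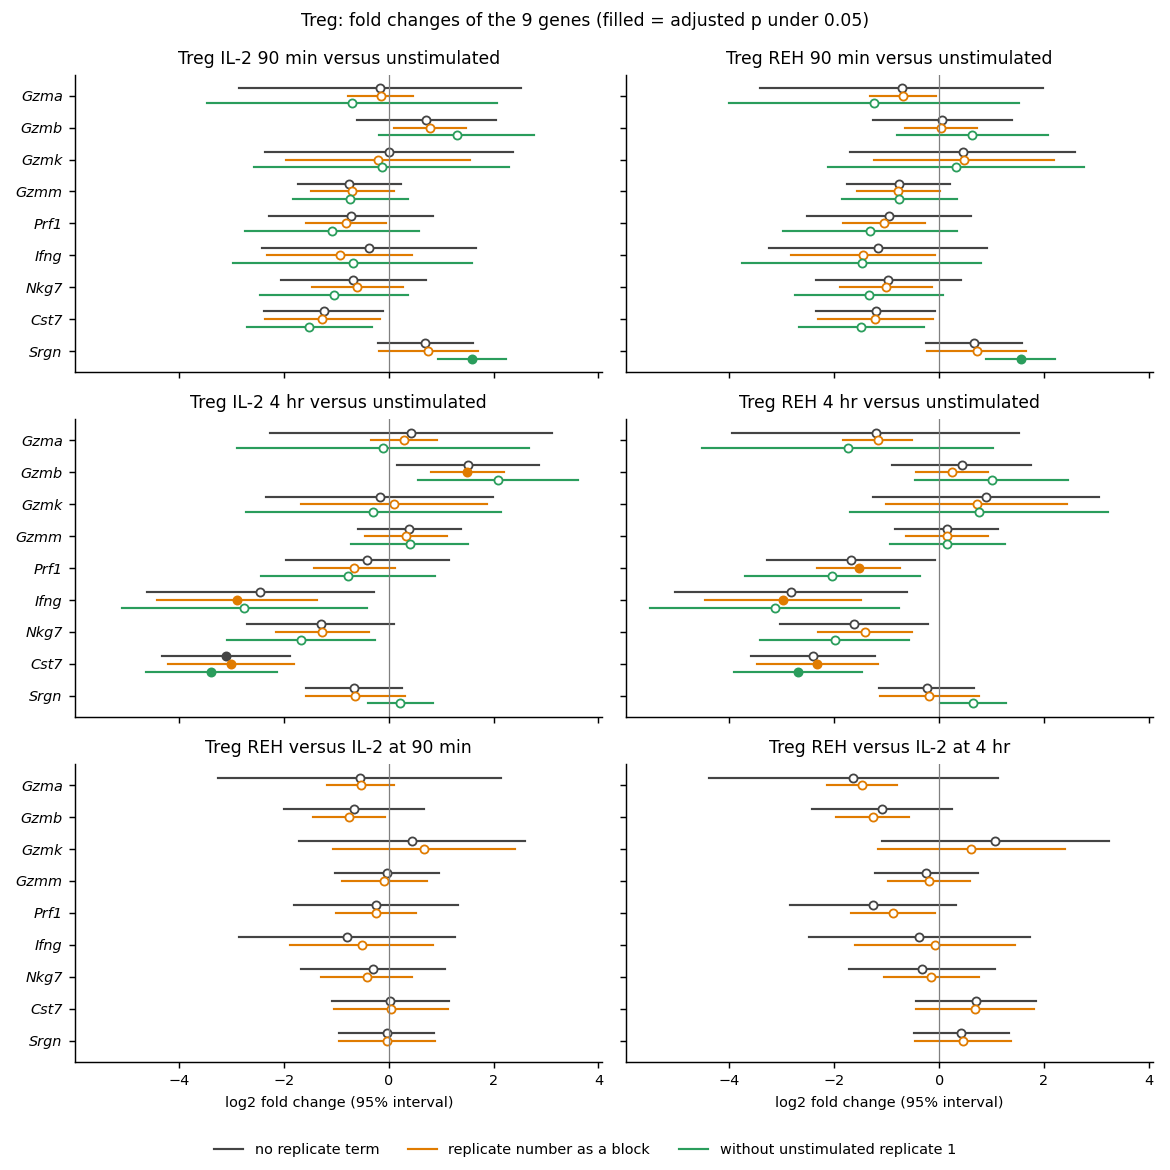
Log2 fold changes in Tregs (x axis) with 95% intervals for the 9 genes (y axis) in 6 comparisons, from fits with no replicate term, with the replicate number as a block, and without unstimulated replicate 1; filled points have an adjusted p under 0.05. Cst7 is filled in all 3 fits for IL-2 at 4 hr, and no point is filled where IL-2-REH (REH) is compared with IL-2.

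The NK markers moved with several of these genes. Their sum was 4.38, 31.8 and 20.1 RPKM in unstimulated replicates 1, 2 and 3, 3.49, 17.0 and 3.94 RPKM with IL-2 for 4 hr, and 3.97, 12.2 and 13.0 RPKM with IL-2-REH for 4 hr. Across the 15 Treg libraries, which share the replicate structure, Pearson's r with this sum was 0.84 for Gzma, 0.83 for Prf1, 0.82 for Nkg7, 0.78 for Ifng and 0.59 for Cst7, against -0.52 for Gzmb and -0.02 for Srgn. Of the 6 markers, none was called without the block, 1 (Tyrobp) was called lower with the block for IL-2 at 4 hr and 1 (Klrb1c) for IL-2-REH at 4 hr. The 3 T cell markers summed to 464 to 699 RPKM before stimulation and 245 to 351 RPKM with IL-2 for 4 hr, and with the block 2 of them (Cd3d and Cd3g) were called lower. Of 5 listed macrophage markers 4 were in the tables, and they summed to 14.0, 52.2 and 46.2 RPKM before stimulation and 7.43, 24.9 and 18.1 RPKM after 4 hr of IL-2. With the block 3 of the 4 (Cd14, Csf1r and Lyz2) were called lower with IL-2 at 4 hr and 1 (Csf1r) with IL-2-REH at 4 hr, in the fits that called Cst7 and Ifng lower, and without the block none was. Of the 4 erythroid markers Car1 was called lower with IL-2 at 4 hr with and without the block, and with IL-2-REH at 4 hr with it. The part of such cells in the lower Ifng, Cst7 and Prf1 was not tested.

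**Figure D3:**
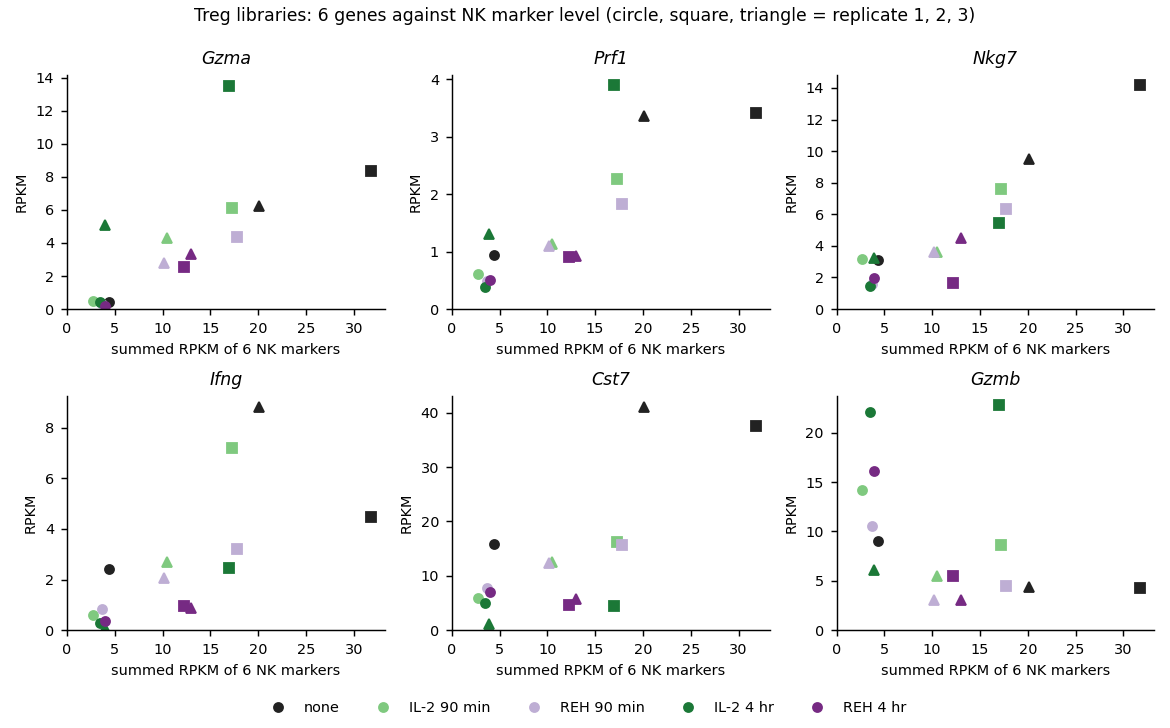
RPKM of 6 of the genes (y axis) against the summed RPKM of 6 NK cell markers (x axis) in the 15 Treg libraries, coloured by condition and shaped by replicate. Gzma, Prf1 and Nkg7 rise along the marker sum (r = 0.84, 0.83 and 0.82), whereas the highest Gzmb values include libraries with an NK sum under 5 RPKM.

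IL-2-REH and IL-2 were compared directly at the matched dose and times, and no member was called at either time in Tregs. At 90 min edgeR called 0 members beside 0.0133% of all genes, with 0 members at an unadjusted p under 0.05, and DESeq2 and limma also called 0. At 4 hr edgeR called 0 members beside 0.0267% of all genes, again with 0 under 0.05 before adjustment and 0 by DESeq2 and by limma. For Gzmb at 4 hr the log2 difference was -1.08 (95% interval -2.42 to 0.25), which spans no difference as well as a level more than 4-fold lower with IL-2-REH. With the block 3 members were under 0.05 before adjustment at 4 hr, of which Gzma differed by -1.47 (95% interval -2.13 to -0.81, adjusted p = 0.13) and Gzmb by -1.26 (95% interval -1.96 to -0.57, adjusted p = 0.24). Cst7 was at 0.70 (95% interval -0.44 to 1.84) and Ifng at -0.38 (95% interval -2.48 to 1.73) without the block.

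Between 90 min and 4 hr of the same ligand, edgeR called 0 members and 0% of all genes for IL-2, and 0 members and 0% of all genes for IL-2-REH. For IL-2, 3 members had an unadjusted p under 0.05: Cst7 at -1.87 (SE 0.54), Srgn at -1.36 (SE 0.43) and Gzmm, and DESeq2 called 1 of them (Cst7, adjusted p = 0.025, beside 2.78% of all genes) whereas limma called 0. For IL-2-REH, Cst7 alone was under 0.05 before adjustment, at -1.20 (SE 0.53), and DESeq2 and limma called 0. Without replicate 1, Cst7 (-2.58, adjusted p = 0.031) and Srgn (-1.39, adjusted p = 0.0496) were lower at 4 hr than at 90 min of IL-2, in a fit that called 4.32% of all genes.

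In CD8+ T cells Gzmb went opposite ways with the 2 ligands. It was at 8.19 RPKM (712 reads) before stimulation, at 18.3 RPKM with IL-2 and 4.58 RPKM with IL-2-REH at 90 min, and at 31.7 RPKM with IL-2 (3037 reads) and 1.999 RPKM with IL-2-REH (205 reads) at 4 hr. Against the unstimulated library the ratio at 4 hr was 3.87 with IL-2 (95% exact counting interval 3.56 to 4.203) and 0.244 with IL-2-REH (0.208 to 0.286). Such intervals cover counting error only, since PCR copies were not told apart, and differences between 2 single libraries have no replicate check.

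Directly compared at 4 hr, Gzmb with IL-2-REH was 0.0631 times its level with IL-2 (95% counting interval 0.0545 to 0.0728), and at 90 min 0.250 times (0.224 to 0.278). At 90 min all 9 members were lower with IL-2-REH than with IL-2, with a median log2 ratio of -0.53 over the members and -0.07 over all 10021 genes with a mean of at least 1 RPKM. At 4 hr 8 of 9 were lower, all but Srgn, with medians of -0.79 and 0.08. Past a log2 ratio of 2 on the RPKM + 1 scale, 0 members at 90 min (0.0699% of all genes) and 2 members at 4 hr (0.289% of all genes) differed, which were Gzmb (-3.44) and Nkg7 (-2.10). Nkg7 was at 139 RPKM with IL-2 and 31.6 RPKM with IL-2-REH at 4 hr.

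Ifng in CD8+ T cells was lower than before stimulation in every stimulated library. It was at 7.89 RPKM unstimulated, at 3.25 RPKM with IL-2 and 0.905 RPKM with IL-2-REH at 90 min, and at 1.70 RPKM and 0.561 RPKM at 4 hr, on 585, 273, 68, 139 and 49 reads. Cst7 was at 46.2 RPKM before stimulation and 10.2, 8.13, 13.2 and 9.06 RPKM in the same order. Nkg7 was at 204 RPKM and then 81.4, 40.5, 139 and 31.6 RPKM. Counted against the unstimulated library, 1 member passed the fold with IL-2 at 90 min (Cst7, beside 0.489% of all genes), 3 with IL-2-REH at 90 min (Ifng, Nkg7 and Cst7, beside 0.559%), 0 with IL-2 at 4 hr (beside 0.539%) and 3 with IL-2-REH at 4 hr (again Ifng, Nkg7 and Cst7, beside 0.599%). All of these were lower. In the IL-2-REH library at 90 min the median of all genes was also lower, by 0.12 on the log2 scale.

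Gzma, Prf1 and Gzmm were also lower with IL-2-REH than with IL-2 in CD8+ T cells, by less. Gzma was at 35.1 RPKM before stimulation, 33.3 and 21.2 RPKM with IL-2 and IL-2-REH at 90 min and 38.8 and 19.2 RPKM at 4 hr. Prf1 was at 22.0 RPKM and then 15.3, 10.3, 17.8 and 9.32 RPKM in that order, and Gzmm at 8.97 RPKM and then 5.03, 4.08, 4.65 and 2.72 RPKM. Gzmk was the only member above its unstimulated level in all 4 stimulated libraries, at 3.14 RPKM before and 5.92, 4.87, 7.25 and 6.10 RPKM after. Srgn was at 170 RPKM before, 245 and 233 RPKM at 90 min, and 116 and 148 RPKM at 4 hr. Between the 2 times of one ligand, 0 members passed the fold for IL-2 (0.0798% of all genes) and 0 for IL-2-REH (0.0499%). The NK marker sum was 36.2 RPKM in the unstimulated CD8 library and 16.1 to 18.8 RPKM in the 4 stimulated ones, so it moved with the lower Ifng, Cst7, Nkg7, Prf1 and Gzmm against unstimulated cells. It was at 18.8 and 16.1 RPKM with IL-2 and IL-2-REH at 90 min and at 18.2 and 17.4 RPKM at 4 hr. The macrophage marker sum fell as well, from 27.3 RPKM before to 12.9 to 17.3 RPKM after stimulation, so NK and macrophage RNA cannot be told apart here. The T cell marker sum was also lower, at 751 RPKM before and 411 to 486 RPKM after stimulation, as was that of the CD8 markers, at 728 RPKM before and 282 to 493 RPKM after. Their part in the comparison with unstimulated cells was not tested.

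**Figure D4:**
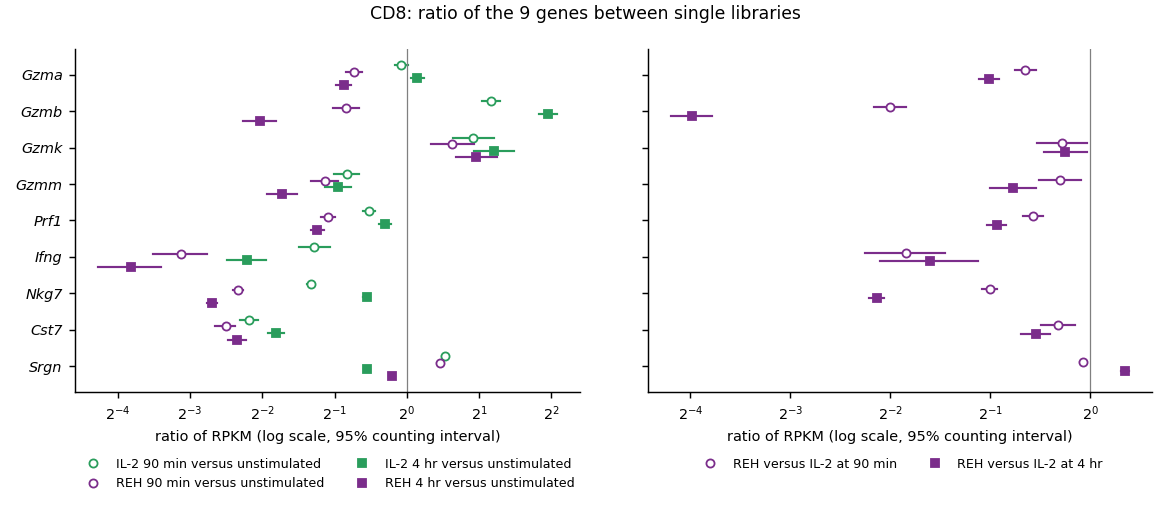
Ratio of RPKM between 2 single CD8 libraries (x axis, log scale) for the 9 genes (y axis), each stimulated library against the unstimulated one at left and IL-2-REH (REH) against IL-2 at right; bars are 95% exact counting intervals and do not cover variation between cultures. At right Gzmb at 4 hr lies farthest from 1, at 0.0631.

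The CD8 libraries had more of most of these transcripts than the Treg libraries. In unstimulated cells 6 of 9 members lay above all 3 Treg libraries, as did 20.5% of 10457 genes. Nkg7 was 22.9 times the Treg mean, Gzmm 14.4 times, Gzmk 10.1 times, Prf1 8.55 times and Gzma 6.99 times, whereas Gzmb (1.39 times) and Ifng (1.51 times) lay within the Treg range and Srgn (0.337 times) lay below it. With IL-2 the members above were 6 at 90 min (29.8% of all genes) and 7 at 4 hr (22.8%), and with IL-2-REH they were 5 at 90 min (24.4%) and 6 at 4 hr (23.6%). Gzmb changed its place with the ligand: at 4 hr the CD8 library was above all 3 Treg libraries with IL-2, at 31.7 RPKM, and below all 3 with IL-2-REH, at 1.999 RPKM. Srgn was below all 3 Treg libraries in all 5 conditions. The CD8+ T cells were isolated without a sort. Their NK marker sum was 36.2 RPKM before stimulation, against 4.38, 31.8 and 20.1 RPKM in unstimulated Tregs. With IL-2-REH at 90 min it was 16.1 RPKM, within the Treg values of 3.69, 17.8 and 10.2 RPKM. The part of NK cells in the differences between the cell types was not tested.

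The genes around these 9 were described from 8 lists. Other granzymes (Gzmc, Gzmd, Gzme, Gzmf, Gzmg and Gzmn) summed to at most 1.13 RPKM in any library. These genes are close copies of Gzmb on the same chromosome, and only uniquely mapped reads were counted, so small counts among them are uncertain. Over the 8 lists 75 genes were tested in Tregs. With IL-2 for 4 hr 4 were called higher and none lower: Socs1, a feedback inhibitor of cytokine signalling (2.36, SE 0.38, adjusted p = 0.0069), Gbp2, an interferon-induced GTPase (1.36, SE 0.32, adjusted p = 0.042), Snap23, a membrane fusion protein of secretion (1.37, SE 0.27, adjusted p = 0.020), and Il2ra, the IL-2 receptor alpha chain (1.15, SE 0.27, adjusted p = 0.041). At 90 min of IL-2 only Socs1 was called (2.28, SE 0.38, adjusted p = 0.011). These fits called 2.27% of all genes for IL-2 at 4 hr and 0.853% at 90 min. With IL-2-REH none was called at either time with all libraries and no block, and none in the direct comparison of the ligands. With the block 7 were called higher and 6 lower for IL-2 at 4 hr, beside 6.92% of all genes. For IL-2-REH at 4 hr the block gave 3 higher (Socs1, Snap23 and Serpinb6a), beside 3.03% of all genes. Without unstimulated replicate 1 and without the block, 15 were called higher and 3 lower with IL-2 at 90 min, 11 and 3 with IL-2-REH at 90 min, 9 and 3 with IL-2 at 4 hr, and 5 and 3 with IL-2-REH at 4 hr, in the fits that called 12.9%, 12.1%, 8.87% and 6.93% of all genes. Stat4, Stat5a and Stat5b, transcription factors of cytokine signalling, were higher in all 4 of these. With all libraries, granule maturation genes and granzyme inhibitors had 0 of 11 called with IL-2 at 4 hr, effector cytokines and death ligands 0 of 11, transcription factors 0 of 13 and NK receptors 0 of 8, all without the block. With the block, Ccl3 and Il10 of the effector cytokines, Eomes and Id2 of the transcription factors and Klrg1 of the NK receptors were called.

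In CD8+ T cells 67 genes of these lists could be compared. Tnf and Lta, which encode tumour necrosis factor and lymphotoxin alpha, were higher with IL-2 at both times. Tnf was at 2.03 RPKM before stimulation, 14.9 RPKM with IL-2 and 2.55 RPKM with IL-2-REH at 90 min, and 20.8 and 1.77 RPKM at 4 hr. Lta was at 3.21 RPKM and then 33.4, 4.33, 43.4 and 4.37 RPKM in the same order. Gzmb, Tnf and Lta were thus each at a higher level with IL-2 than before stimulation and near or under the unstimulated level with IL-2-REH, while Ifng was lower with both ligands. The chemokine Ccl3 was lower too, at 11.1 RPKM before and 1.72 and 0.245 RPKM with IL-2 and IL-2-REH at 4 hr.

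The list of interferon gamma receptor and response genes includes Ifngr1, Ifngr2, Jak1 and Jak2, which encode receptor chains and their kinases. Most of its genes did not follow Ifng itself in CD8+ T cells at 4 hr. With IL-2 at 4 hr 10 of 12 were above their unstimulated level. Of these 4 passed the fold, beside 0.539% of all genes. Gbp2 went from 30.9 RPKM to 166.1 RPKM, Igtp from 47.7 RPKM to 226 RPKM, Iigp1 from 3.87 RPKM to 33.1 RPKM and Socs1 from 9.25 RPKM to 42.3 RPKM. With IL-2-REH at 4 hr these 4 genes were at 38.9, 54.2, 5.10 and 9.81 RPKM. There 10 of 12 were above their unstimulated level and 0 of 12 passed the fold, beside 0.599% of all genes. Il12rb2, which encodes a chain of the IL-12 receptor, was at 1.45 RPKM before stimulation and at 13.2 and 8.92 RPKM with IL-2 and IL-2-REH at 90 min. No gene of the granule release list passed the fold in any CD8 comparison with unstimulated cells, and Id2 alone of the transcription factors did, lower with IL-2-REH at 90 min (43.3 RPKM to 10.01 RPKM).

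The genes most like Gzmb and Ifng were found by Pearson's r of log2(RPKM + 1) over libraries, as a description with no test. Over the 15 Treg libraries the genes nearest Gzmb among 10473 were Arl1 (r = 0.87), Mtbp, Reep3, Ctage5 and Diablo (0.83), and nearest Ifng were Snord100 (0.93), Focad, Tespa1, Gas5 and St3gal6 (0.90). Over the 5 CD8 libraries, few enough that high values of r are common, the nearest to Gzmb among 10021 genes were Bcl2, Egln2, Kpnb1, Gp49a and Slamf1 (0.996 down to 0.989), and the nearest to Ifng included Ccl3 (0.997) among Rpl36al, Pradc1, Adcy3 and Snord82. Among the members themselves, Prf1 in Tregs was most like Gzma (0.90) and Nkg7 (0.88), Ifng most like Cst7 (0.84), and Gzmb had negative values with Gzma, Prf1, Ifng, Nkg7, Cst7 and Srgn (-0.43 to -0.04).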

How the data were processed

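RNA-seq was done in 15 Treg and 5 CD8 libraries, with single-end reads from poly(A) libraries. The authors aligned reads to mm10 (TopHat2 2.1.1 and Bowtie2 2.2.6 in the submitters' processing notes, with SAMtools 0.1.8 and bedtools 2.25.0), kept uniquely mapped reads and deposited, per RefSeq transcript, the raw read counts on exons and the RPKM. Strand use in counting and the design of their edgeR test are not given in the sources used here.

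Here the transcript with most reads over the 20 libraries stood for each symbol. Treg counts were tested with edgeR 4.0.16 in R 4.3.3 (quasi-likelihood, TMM, filterByExpr, 1 coefficient per group, all 15 libraries), and genes were called at a Benjamini-Hochberg adjusted p under 0.05 over all genes tested. limma 3.58.1 and DESeq2 1.42.0 were alternatives. Single CD8 libraries were compared as log2 ratios of RPKM + 1 for genes with a mean of at least 1 RPKM, called past 2, with exact counting intervals. The deviations of same-numbered Treg libraries from their group means correlated in all 24 pairs (r = 0.12 to 0.91). Libraries of unlike number reached r = 0.17 over 48 pairs, above the weakest same-numbered pair. Deviations from a shared group mean are tied to each other, so these values of r are not independent and cannot settle the pairing. The pairing comes from the replicate numbers in the labels, so fits with the replicate number as a block were given beside. As no source says that replicates were separate animals, p-values measure the spread between these samples, which may be technical. No 2 libraries held identical values.

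Tests were checked on simulated counts drawn without a replicate effect and without a library that stands apart. That check therefore has no bearing on the block or on leaving out unstimulated replicate 1. The 9 genes, the pathway and marker lists and the rule for named genes (all members, at most 6 genes per list among those called, the 5 genes most alike) were chosen with earlier results of these data known. Promoter windows are from RefSeq (GRCm38.p6, the build of the files).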

Additional observations from a re-analysis of the deposited data

Results flagged for a closer look

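In 7 of 72 combinations of gene and comparison the CD8 log2 ratio (RPKM + 1 scale) had the opposite sign to all 3 same-numbered Treg pairs. The same count over all genes was not made, so 7 of 72 cannot be read as more than other genes would give. None of these differences was tested, since each CD8 group has 1 library. With IL-2 for 4 hr against unstimulated cells, Gzmm was at -0.82 in CD8+ T cells and at 0.04, 0.01 and 0.28 in the Treg pairs. With the ligands compared at 4 hr (IL-2-REH over IL-2), Cst7 was at -0.50 in CD8+ T cells and at 0.43, 0.03 and 1.73 in the Treg pairs. Between 90 min and 4 hr of IL-2, Nkg7 was at 0.76 in CD8+ T cells against -0.75, -0.42 and -0.13 in Tregs, Cst7 at 0.35 against -0.23, -1.65 and -2.72, and Gzmm at -0.10 against 0.28, 0.18 and 0.71. Between 90 min and 4 hr of IL-2-REH, Cst7 was at 0.14 in CD8+ T cells against -0.12, -1.58 and -0.98, and Gzmm at -0.45 against 0.05, 0.50 and 0.47. Several of these values are close to 0, and Gzmm was at no more than 1.15 RPKM in Tregs.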

How the results depend on the processing

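With the replicate number as a block, members called with 4 hr of IL-2 went from 1 to 3 and with 4 hr of IL-2-REH from 0 to 3, and the block changed no other call of a member. Without unstimulated replicate 1 and with the block, an alternative chosen after seeing the data, 1 member was called with each ligand at 90 min, and 4 (IL-2) and 5 (IL-2-REH) at 4 hr. Leaving out 1 replicate number or 1 unstimulated library at a time gave 0 to 1 called members with IL-2 at 90 min (0% to 17.3% of all genes), 0 to 1 with IL-2-REH at 90 min (0% to 15.7%), 0 to 2 with IL-2 at 4 hr (0.0197% to 13.4%), 0 to 2 with IL-2-REH at 4 hr (0% to 10.7%) and 0 to 2 between 90 min and 4 hr of IL-2 (0% to 4.32%), each time with the highest share without replicate 1. With only the groups compared in the fit, 0 were called with IL-2 at 4 hr. DESeq2 called 2 with IL-2-REH at 4 hr and 1 between the times of IL-2. In CD8+ T cells a log2 ratio past 1 in place of 2 gave 4 members with IL-2 at 90 min (7.24% of all genes), 4 with IL-2-REH at 90 min (8.57%), 3 with IL-2 at 4 hr (4.71%), 6 with IL-2-REH at 4 hr (6.11%), 2 for the ligands at 90 min (0.868%) and 1 between the times of IL-2 (1.996%), and a pseudocount of 0.1 gave 1 with IL-2 at 4 hr (1.19%). The causes were not tested.

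Log2 fold changes in Tregs under an alternative were tallied for the members except Gzmk and Gzmm, and for pathway genes called with all libraries and no block. Of 738 such values, 678 kept their direction and side of the threshold, most of them on the uncalled side. A further 28 newly passed it, 4 no longer passed it and 28 changed sign. None of the members that changed sign was called in Tregs with all libraries and no block. Over fits that left out a library, these ranged as follows on the log2 scale. Gzma was at -0.69 to 0.30 (IL-2, 90 min) and -0.14 to 0.88 (IL-2, 4 hr), and Ifng at -1.59 to 0.34 (IL-2, 90 min). Gzmb was at -0.20 to 0.63 (IL-2-REH, 90 min) and Prf1 at -1.23 to 0.025 (IL-2, 4 hr). Srgn was at -1.33 to 0.30 (IL-2, 4 hr) and -0.73 to 0.79 (IL-2-REH, 4 hr), and at 0.30 and 0.73 with the block and without unstimulated replicate 1. For the ligands compared, Cst7 was at -0.048 to 0.095 (90 min), and Ifng at -1.07 to 1.51 and Nkg7 at -0.94 to 0.37 (4 hr). Between the times, Prf1 was at -0.051 to 0.45 (IL-2), and Gzmb at -0.062 to 0.51 and Nkg7 at -1.24 to 0.19 (IL-2-REH). By limma with a pseudocount of 1 or 0.1, Gzmb was at -0.043 and -0.064 (IL-2-REH, 90 min), Srgn at 0.025 and 0.026 (IL-2-REH, 4 hr) and Ifng at 0.0034 and 0.40 (ligands, 4 hr).

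Calls over all genes depended strongly on the libraries and the fit. They ranged over the alternatives from 0 to 4170 for IL-2 at 90 min (128 as reported), from 0 to 3933 for IL-2-REH at 90 min (14), from 3 to 3247 for IL-2 at 4 hr (341), from 0 to 2587 for IL-2-REH at 4 hr (47), from 0 to 14 and from 0 to 58 for the ligands at 90 min (2) and 4 hr (4), and from 0 to 625 and from 0 to 574 for the times of IL-2 and IL-2-REH (0 each), with the highest counts against unstimulated cells when unstimulated replicate 1 was left out under the block. In CD8+ T cells a log2 ratio past 1 gave 87 to 859 genes in place of 5 to 60. Gzmk and Gzmm rested on at most 69 reads a library in Tregs.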
